A study of Mus musculus with 6 samples.

Results

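The genes described here encode 10 proteins of focal adhesions, the plaques that couple integrins to the actin cytoskeleton: Ilk, Lims1, Parva, Parvb, Ptk2, Pxn, Vcl, Pak1, Fyn and Tns3. They were chosen by name, with earlier results of these data known, from the 24421 genes counted in each library. Each of the 10 passed the filter on low counts. RNA was measured in the sciatic nerve of mice, the large mixed nerve that serves the hind leg, in 3 libraries labelled YAP/TAZ-DBL-cKO (called cKO) and in 3 labelled YAP/TAZ-WT (called WT), and the series' design text gives 3 mice for each. The labels do not spell out cKO, and the alleles, the driver of the deletion, the strain, the age of the mice and any treatment were not given in the sources used here. YAP and TAZ are the co-activators of transcription that the Hippo kinases restrain, and the series' title names myelination, Schwann cell proliferation and laminin receptors, of which the integrins signal through these plaques. Levels are CPM (read counts scaled to library size) with TMM factors applied, fold changes are cKO over WT, and a gene was called changed at an adjusted p under 0.05.

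An integrin that binds laminin or another matrix protein has no enzymatic activity of its own and depends on proteins that gather at its cytoplasmic tail. Integrin-linked kinase (ILK), PINCH-1 and a parvin form a tight complex that joins the tail to actin, focal adhesion kinase (FAK) and paxillin carry signals, vinculin and tensins bear load on actin, and Src family kinases and p21-activated kinases pass signals on to the small GTPases that shape the cell. In mice, loss of ILK or of FAK from Schwann cells disturbs radial sorting, the step in which a Schwann cell separates axons before it myelinates them. YAP and TAZ are known to respond to adhesion and to tension in the actin cytoskeleton.

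Total gene counts lay between 24651262 and 32003497 in the cKO libraries and between 41270894 and 47044158 in the WT libraries. Yap1 averaged 106.5 ± 3.41 CPM in cKO nerves and 121.9 ± 1.69 CPM in WT nerves (SD, n = 3 each; edgeR adjusted p = 0.145), and Wwtr1, which encodes TAZ, averaged 359 ± 18.7 and 271 ± 15.6 CPM (edgeR adjusted p = 0.0208), so whole-gene counts check neither label and directions rest on the labels alone. The Schwann cell gene Sox10 lay between 413 and 486 CPM in cKO and between 404 and 571 CPM in WT nerves. Every library held both Xist (134 to 258 CPM) and Ddx3y of the Y chromosome, and pooling of nerves is not mentioned in the labels. Whether each library holds a single mouse is therefore uncertain, and so is what n = 3 counts. Ddx3y had 8.92, 18.7 and 25.7 CPM in cKO nerves and 20.8, 44.5 and 47.9 CPM in WT nerves. It was lower in cKO nerves on average, with overlap (edgeR adjusted p = 0.121). Skeletal muscle genes separated the groups: 17 of 18 were called higher. Their summed level was 5561 to 11570 CPM in cKO and 564 to 2100 CPM in WT nerves. None of them was at 0 in any library. In bulk nerve, fewer cells of a type and less RNA per cell cannot be told apart.

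Of the 10 genes, 4 rose in cKO nerves (Parvb, Pak1, Vcl and Fyn), 1 fell (Tns3) and 5 did not pass the test (Ilk, Lims1, Parva, Ptk2 and Pxn). Over all 14789 tested genes, 10.9% were called in either direction, 4.77% as higher and 6.17% as lower (edgeR's quasi-likelihood test, Benjamini-Hochberg adjustment). Lower genes made up 56.4% of these calls, and 32.3% when libraries were scaled by total counts alone, which moved the median over all genes up by 0.124 on the log2 scale. The groups did not overlap for 7 of the 10 genes, against 31.1% of all tested genes, and these were the 5 called genes together with Lims1 and Parva. Apart from Parvb and Pak1, the 10 genes lay between percentiles 84.5 and 97.6 of mean CPM. Their median SE was 0.0882, against 0.142 for all tested genes, so small differences separate more easily among them. The shares of the 10 and of all genes therefore do not compare like with like. The median log2 fold change of the 10 genes was -0.0041, beside 0.02 for all tested genes, and the largest of the 10 was 0.77. Summed over the 10 genes, the level was 1932 to 2051 CPM in cKO and 1926 to 2072 CPM in WT nerves, and these ranges overlapped. Leaving out 1 library in turn, edgeR called 3, 2 and 1 of the 10 genes without cKO 1, 2 and 3 and 2, 2 and 5 without WT 1, 2 and 3.

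**Figure D1:**
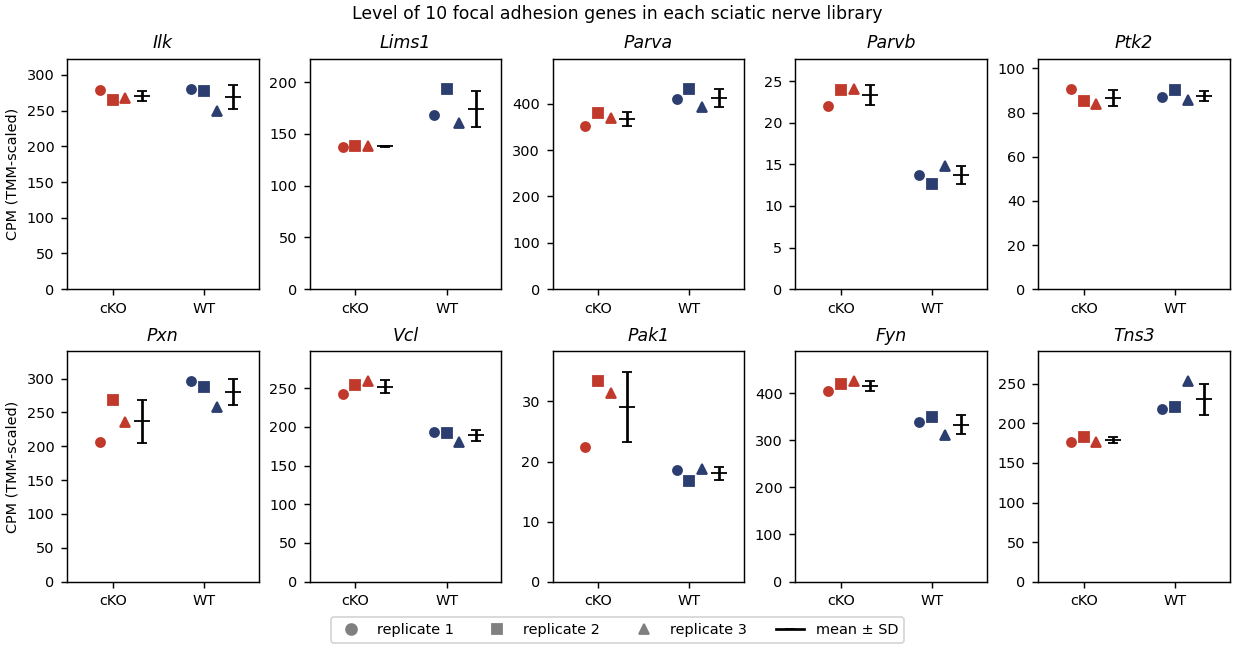
Level of each of the 10 genes (y axis, CPM, from 0) in the 3 cKO and the 3 WT libraries, with marker shapes for the replicate number and a black bar for the mean ± SD of 3 libraries. Parvb, Vcl, Pak1 and Fyn lie higher in every cKO library than in any WT library, Lims1, Parva and Tns3 lie lower, and Ilk, Ptk2 and Pxn overlap.

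The promoters of the 5 called genes are shown because 4 of them rose together, so that their sequences can be set side by side. RefSeq's table (build GRCm38.p6, which is mm10) held starts for 7 of the 10 genes, and none was found there for Parva, Ptk2 or Pxn. The lines give the 250 bases before the start, 5′ to 3′ on the gene's strand, with capitals for matches to a TEAD motif (GGAATG), an AP-1 motif (TGANTCA), the CArG box of serum response factor, an EGR motif (GCGNGGGCG) and a cyclic AMP response element, CRE (TGACGTCA). Both strands were searched, and the CRE was added after the sequences had been seen.
Vcl, chr14:20929148-20929397, plus strand: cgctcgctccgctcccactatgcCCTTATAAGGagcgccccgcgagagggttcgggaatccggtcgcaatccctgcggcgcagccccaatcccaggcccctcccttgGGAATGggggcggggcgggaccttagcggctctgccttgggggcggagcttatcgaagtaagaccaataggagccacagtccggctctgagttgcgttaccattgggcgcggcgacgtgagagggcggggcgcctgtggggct
Parvb, chr15:84231793-84232042, plus strand: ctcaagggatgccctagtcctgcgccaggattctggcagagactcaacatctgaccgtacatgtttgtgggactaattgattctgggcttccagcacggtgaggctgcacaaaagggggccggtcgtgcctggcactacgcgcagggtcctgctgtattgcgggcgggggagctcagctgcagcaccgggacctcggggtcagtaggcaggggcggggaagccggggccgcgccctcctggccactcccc
Pak1, chr7:97788291-97788540, plus strand: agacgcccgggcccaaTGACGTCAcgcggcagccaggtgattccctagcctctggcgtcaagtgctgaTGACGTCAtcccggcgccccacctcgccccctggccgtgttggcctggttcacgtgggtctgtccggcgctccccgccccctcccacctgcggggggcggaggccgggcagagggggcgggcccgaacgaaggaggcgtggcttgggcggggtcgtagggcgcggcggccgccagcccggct
Fyn, chr10:39369549-39369798, plus strand: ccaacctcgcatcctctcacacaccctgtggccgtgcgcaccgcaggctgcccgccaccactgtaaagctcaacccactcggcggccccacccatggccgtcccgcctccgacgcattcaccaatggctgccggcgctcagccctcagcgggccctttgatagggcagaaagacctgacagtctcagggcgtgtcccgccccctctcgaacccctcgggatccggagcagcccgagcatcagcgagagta
Tns3, chr11:8664536-8664785, minus strand: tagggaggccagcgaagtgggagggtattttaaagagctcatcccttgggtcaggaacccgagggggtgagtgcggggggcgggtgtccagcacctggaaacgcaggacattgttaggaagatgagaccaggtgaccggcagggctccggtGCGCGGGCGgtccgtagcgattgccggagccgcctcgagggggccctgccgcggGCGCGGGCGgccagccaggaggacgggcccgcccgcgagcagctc
Vcl had a CArG box 227 to 218 bases and a TEAD motif 143 to 138 bases before the start, and was the only one of the 5 with either. Of 32851 promoters of this length in the table, 1.47% held a CArG box and 12.6% the TEAD motif. Pak1 had 2 CRE matches, 234 to 227 and 182 to 175 bases before the start (1.55% of all promoters had at least 1), and Tns3 had 2 EGR matches, 99 to 91 and 45 to 37 bases before it (4.70% of all), each sharing bases with a GC box (GGGCGG). The AP-1 motif, found in 6.75% of all promoters, was in none of the 5, and Parvb and Fyn held no match in capitals. In the GENCODE M21 annotation, however, Fyn begins at 39368855, upstream of the 250 bases shown. The bases before that start were not searched. The plain GC box, not capitalised, occurred 2 times in Parvb, 4 times each in Vcl, Pak1 and Tns3 and 1 time in Fyn (32.7% of all promoters held it). G and C made up 65.2% to 74.8% of the 5 sequences shown, against a median of 52.4% over all promoters. Matches to the GC box and the EGR motif, made mostly of G and C, are met more readily in such sequences. The table lists another start for Pak1, downstream of the one shown, whose 250 bases (chr7:97842689-97842938) held 3 GC boxes and 0 CRE matches, and the counts do not tell which start was used. Such matches describe letters and say nothing of binding.

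In the ILK, PINCH and parvin complex, the minor parvin, Parvb, rose, and Ilk, Lims1 and Parva did not pass the test. Ilk, the pseudokinase at the centre of the complex, had 279, 264 and 268 CPM in cKO 1, 2 and 3, against 280.2, 277 and 249 CPM in WT 1, 2 and 3. The groups overlapped, and the log2 fold change was 0.0086 ± 0.086 (SE, n = 3 per group; edgeR adjusted p = 0.971) with a 95% interval of -0.19 to 0.20. Its sign turned to negative without cKO 1 or WT 3. In the GENCODE M21 annotation, 76.7% of Ilk's exon bases overlap exons of Taf10 on the opposite strand and 12.9% those of Rrp8. The strand setting of the counting was not given in the sources used here. If strand was ignored, reads from the shared bases may have been set aside as ambiguous, so the level of Ilk is uncertain and may be understated. Taf10 itself averaged 84.1 ± 10.9 CPM in cKO and 68.3 ± 5.11 CPM in WT nerves (edgeR adjusted p = 0.123).

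Lims1, which encodes PINCH-1, the adaptor that holds ILK in the complex, had 137.5, 138.5 and 138.3 CPM in cKO nerves and 168.2, 193.3 and 160.4 CPM in WT nerves. The 3 cKO libraries lay within 1 CPM of each other and below every WT library, yet the difference stopped just short of the threshold (log2 -0.33 ± 0.09, edgeR adjusted p = 0.0508). It passed without WT 3 (edgeR adjusted p = 0.0181), with DESeq2 size factors, with no filter and with DESeq2 itself. Parva, which encodes alpha-parvin, the actin-binding partner of ILK in most tissues, had 351, 381 and 368 CPM in cKO and 409.9, 432 and 393 CPM in WT nerves. It too lay lower in every cKO library, by less than the test required (log2 -0.17 ± 0.09, edgeR adjusted p = 0.280, 95% interval -0.36 to 0.03).

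Parvb, on chromosome 15 (84232043 to 84315688, plus strand), encodes beta-parvin, which can take the place of alpha-parvin beside ILK and is abundant in heart and skeletal muscle. It had 22.0, 24.0 and 24.0 CPM in cKO 1, 2 and 3, against 13.7, 12.6 and 14.9 CPM in WT 1, 2 and 3. Each cKO library stood well above each WT library. Parvb rose 1.70-fold (log2 0.77 ± 0.12, SE, n = 3 per group; edgeR adjusted p = 0.00426), the largest change of the 10 genes, and of the 10 genes it alone kept its call whichever library was left out (6 of 6 fits).

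Setting genes against each other within a library removes library scaling altogether. The log2 ratio of Parvb to Parva counts was -4.00, -3.99 and -3.94 in cKO nerves and -4.91, -5.10 and -4.73 in WT nerves, a 1.91-fold shift towards beta-parvin. Per kilobase of exon, Parvb made up 12.2 ± 0.31% of the 3 parvins in cKO nerves and 6.90 ± 0.814% in WT nerves (SD, n = 3 each), and Parva made up 83.6 ± 0.431% and 89.8 ± 0.902%. Alpha-parvin thus remained the main parvin transcript in both groups. The ratio of Ilk to Lims1 was 1.26-fold higher in cKO nerves, with log2 values of 1.02, 0.93 and 0.96 against 0.74, 0.52 and 0.64 in WT nerves. The ratio of Ilk to Parva was 1.13-fold higher, also without overlap.

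Of 13 such gene pairs compared, 8 did not overlap between the groups, each with an exact two-sided permutation p of 0.1, the smallest that 3 against 3 libraries allow (adjusted over the 13 pairs, exact test, 0.1625). All 8 pairs hold at least 1 gene whose own level did not overlap between the groups, so their separation largely restates that of the single genes, and no share over all gene pairs was computed. For Lims2 against Lims1, the PINCH pair, the log2 ratios overlapped (-3.25, -2.80 and -3.04 in cKO nerves; -3.25, -3.49 and -2.50 in WT nerves), with an exact permutation p of 0.9.

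**Figure D2:**
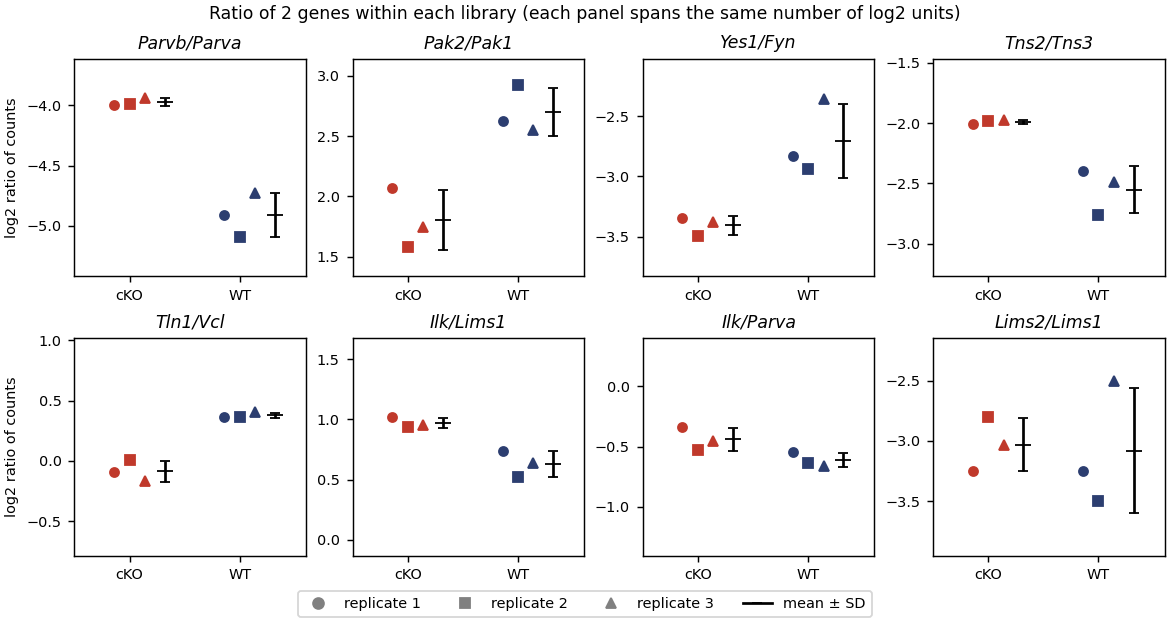
Log2 ratio of the counts of 2 genes within each library (y axis) for 8 of the 13 pairs, with cKO libraries on the left and WT libraries on the right of each panel, marker shapes for the replicate number and black bars for the mean ± SD of 3 libraries. Parvb/Parva lies higher and Pak2/Pak1 and Yes1/Fyn lie lower in every cKO library than in any WT library, while Lims2/Lims1 overlaps.

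The FAK and paxillin pair did not pass the test. Ptk2, which encodes FAK, the tyrosine kinase that integrin engagement activates, had 90.6, 85.4 and 83.8 CPM in cKO nerves and 87.2, 90.1 and 85.7 CPM in WT nerves. The groups overlapped fully, and the 95% interval of the log2 fold change was -0.19 to 0.16 around -0.02 ± 0.08 (SE; edgeR adjusted p = 0.933). The sign turned positive with upper-quartile factors, with total counts, with the muscle level as a covariate and without WT 2. Pxn, which encodes paxillin, the scaffold that FAK phosphorylates, had 206, 268 and 236 CPM in cKO 1, 2 and 3, against 296, 287 and 259 CPM in WT 1, 2 and 3. Only cKO 2 reached into the WT range, and cKO 1 was the lowest of the 6 libraries (log2 -0.24 ± 0.11, edgeR adjusted p = 0.226, 95% interval -0.50 to 0.01). Ptk2b, which encodes the FAK relative PYK2, was 1.53-fold higher against Ptk2 in cKO nerves by count ratio, without overlap (exact permutation p = 0.1).

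The actin linkers moved in opposite directions. Vcl, on chromosome 14 (20929398 to 21033676, plus strand), encodes vinculin, which binds talin and actin and strengthens adhesions under load. It had 242, 254 and 259 CPM in cKO nerves, against 194, 193 and 181 CPM in WT nerves. The groups were far apart relative to their spread, and Vcl rose 1.33-fold (log2 0.41 ± 0.08, SE, n = 3 per group; edgeR adjusted p = 0.0125). The call was lost without cKO 3 (edgeR adjusted p = 0.0794) or WT 1 (edgeR adjusted p = 0.0507). Talin-1, its partner on the integrin tail, did not move with it: Tln1 averaged 238 ± 15.3 CPM in cKO and 246 ± 5.76 CPM in WT nerves (edgeR adjusted p = 0.809). The log2 ratio of Tln1 to Vcl was -0.09, 0.0051 and -0.17 in cKO nerves and 0.37, 0.37 and 0.40 in WT nerves, a 1.38-fold lower ratio (exact permutation p = 0.1). Of Vcl's exon bases, 25.5% overlap exons of Ap3m1 on the opposite strand, and Ap3m1 changed by a log2 value of -0.19 ± 0.08 (edgeR adjusted p = 0.197), opposite in sign to that of Vcl.

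Tns3, on chromosome 11 (8431652 to 8664535, minus strand), encodes tensin-3, which binds integrin tails and signalling adaptors. It had 177, 183 and 176 CPM in cKO nerves, against 218 and 220.3 CPM in WT 1 and WT 2 and 253 CPM in WT 3. The groups did not overlap, and WT 3 stood above the other WT libraries. Tns3 fell 1.29-fold (log2 -0.37 ± 0.09, edgeR adjusted p = 0.0309). The call held in 2 of the 6 fits that left out 1 library (without WT 1 or WT 3), not without cKO 1, cKO 2, cKO 3 or WT 2 (edgeR adjusted p = 0.0657, 0.076, 0.132 and 0.0656), and not with total counts, where edgeR gave an adjusted p of 0.0955. Against it, Tns2 counts were 1.47-fold higher by ratio in cKO nerves (exact permutation p = 0.1), whereas the ratio of Tns1 to Tns3 overlapped between the groups (exact permutation p = 0.8). Per kilobase, Tns3 was the main tensin, at 48.1 ± 1.97% of the family in cKO and 52.8 ± 1.93% in WT nerves.

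Both kinases downstream of the plaque rose. Pak1, on chromosome 7 (97788541 to 97912381, plus strand), encodes a serine/threonine kinase that Rac1 and Cdc42 activate. It had 22.4, 33.3 and 31.5 CPM in cKO 1, 2 and 3, against 18.6, 16.8 and 18.7 CPM in WT 1, 2 and 3. The library cKO 1 lay much nearer to the WT libraries than cKO 2 and cKO 3 did. Pak1 rose 1.61-fold (log2 0.69 ± 0.16, SE, n = 3 per group; edgeR adjusted p = 0.0225), and the call held without cKO 1 or WT 3 and was lost without cKO 2, cKO 3, WT 1 or WT 2 (edgeR adjusted p = 0.0846, 0.108, 0.0613 and 0.0852). Pak2, the more abundant relative, averaged 100.04 CPM in cKO and 117 CPM in WT nerves (edgeR adjusted p = 0.155), and the ratio of Pak2 to Pak1 was 1.86-fold lower in cKO nerves without overlap (exact permutation p = 0.1). Per kilobase, Pak1 made up 32.6 ± 3.82% of Pak1, Pak2 and Pak3 in cKO nerves and 20.8 ± 2.18% in WT nerves.

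Fyn, on chromosome 10 (39368855 to 39565381, plus strand), encodes the Src family kinase that in oligodendrocytes of the mouse is needed for normal myelination. It had 404, 419 and 425 CPM in cKO nerves, against 338, 350.3 and 311 CPM in WT nerves. All cKO libraries were higher, and Fyn rose 1.25-fold (log2 0.32 ± 0.09, edgeR adjusted p = 0.0486). This call lay at the threshold: it held in 0 of the 6 fits that left out 1 library (edgeR adjusted p = 0.0624 to 0.194) and was lost with DESeq2 size factors and with no filter. Fyn is also expressed by T cells, whose 8 listed markers summed to 4.10 to 13.5 CPM in cKO and 1.77 to 3.48 CPM in WT nerves, with Cd3e, Cd2 and Cd8a at 0 in at least 1 library and 1 of 5 tested markers (Cd3g) called higher. The part of T cells in the Fyn result was not tested. Src averaged 38.8 CPM in cKO and 28.9 CPM in WT nerves and Yes1 39.3 and 51.3 CPM, neither past the threshold (edgeR adjusted p = 0.1005 and 0.0765). The ratio of Yes1 to Fyn was 1.62-fold lower in cKO nerves (exact permutation p = 0.1).

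**Figure D3:**
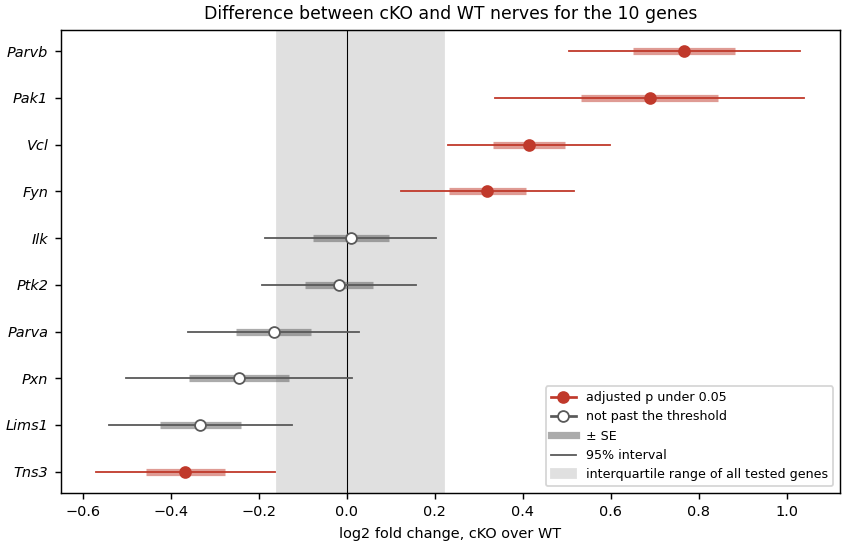
Log2 fold change of cKO over WT (x axis) for the 10 genes, with thick bars for ± SE and thin lines for 95% intervals from 3 libraries per group. The shaded band is the interquartile range of all 14789 tested genes (-0.16 to 0.22). Filled red points passed the threshold, with Parvb (0.77) and Pak1 (0.69) farthest to the right and Tns3 (-0.37) farthest to the left.

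Muscle transcripts moved with these results. Striated muscle has its own adhesion plaques, costameres, and 10 of 12 genes of striated muscle adhesion and the Z-disc were called higher, with a summed level of 426 to 799.7 CPM in cKO and 81.8 to 197 CPM in WT nerves and none at 0. The order of the 3 libraries of each group is given next for the muscle level and the 10 genes. A link between them was not tested. The summed skeletal muscle level was lowest in cKO 1 (5561 CPM) and highest in cKO 2 (11570 CPM). Pak1, which rose, shared this order, as did Lims1, Parva and Pxn, which lay lower in cKO nerves on average without passing the test. For Lims1 the order rests on 137.5, 138.3 and 138.5 CPM, which hardly differ. Parvb, Vcl and Fyn were highest in cKO 3 but also lowest in cKO 1, so each gene that rose was lowest there. Ilk and Ptk2 were highest in cKO 1, and Tns3 was lowest in cKO 3. In WT 2, where the muscle sum was lowest (564 CPM), Parvb and Pak1 were lowest of the WT libraries. Lims1, Parva, Ptk2 and Fyn were highest there. In WT 1, where the muscle sum was highest (2100 CPM), Ilk, Pxn and Vcl were highest and Tns3 was lowest of the WT libraries. With the mean skeletal muscle level as a covariate, 0 of the 10 genes were called by edgeR (1 had an unadjusted p under 0.05) and 46 of all tested genes were, and the median SE of the 10 genes was 0.200 in place of 0.0882. In that fit the log2 fold change was 0.53 ± 0.25 for Parvb, 0.24 ± 0.31 for Pak1, 0.42 ± 0.19 for Vcl, 0.40 ± 0.20 for Fyn, -0.48 ± 0.20 for Tns3 and -0.08 ± 0.19 for Lims1. Without the covariate the values were, in the same order, 0.77 ± 0.12, 0.69 ± 0.16, 0.41 ± 0.08, 0.32 ± 0.09, -0.37 ± 0.09 and -0.33 ± 0.09. The muscle level itself separates the groups (mean log2 CPM 7.12 to 8.21 in cKO and 3.99 to 5.85 in WT libraries). The shifts between the fits therefore do not sort the 10 genes by their dependence on muscle. Muscle level and genotype separate the same libraries, so their parts in these results cannot be told apart.

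Levels can be compared between genes only per length. In CPM per kilobase of exon, Ilk stood highest, at 98.6 in cKO and 98.0 in WT nerves on average, followed by Fyn at 95.3 and 76.4. The length of Ilk includes the exon bases shared with Taf10, so its level is less certain. Ilk lay above Fyn in every WT library, while the ranges of Ilk and Fyn overlapped in cKO nerves. Parva, Lims1 and Pxn followed, at 36.1, 28.2 and 28.9 in cKO and 40.5, 35.6 and 34.2 in WT nerves, and neighbours in this order overlapped in WT nerves, as did Lims1 and Pxn in cKO nerves. Vcl averaged 30.8 in cKO nerves, among these 3, and 23.1 in WT nerves, below Pxn and overlapping with Tns3 at 20.6. Tns3 averaged 16.0 in cKO nerves, below every library of Vcl. Ptk2, Pak1 and Parvb were the lowest, at 7.34, 7.37 and 5.29 in cKO and 7.43, 4.57 and 3.11 in WT nerves: Pak1 lay below Ptk2 in every WT library and overlapped with it in cKO nerves.

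**Figure D4:**
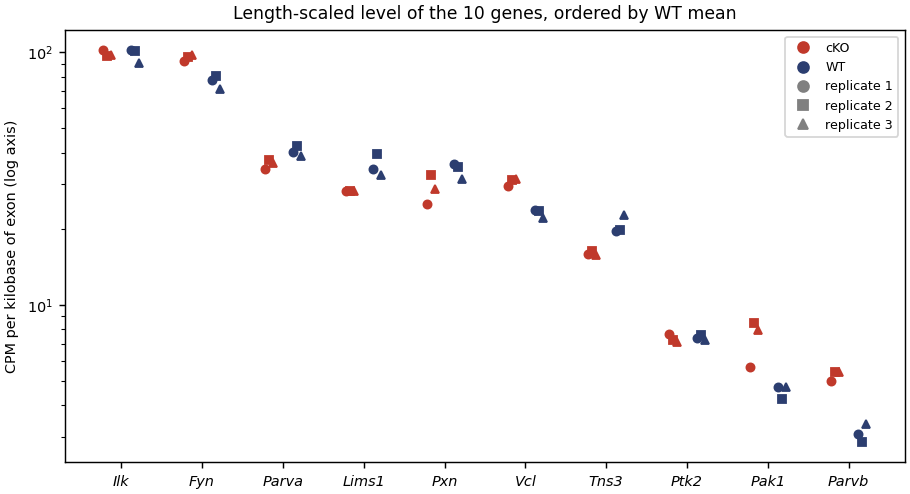
Level per kilobase of exon (y axis, CPM per kilobase, log axis) of the 10 genes in each library, ordered by the WT mean, with cKO libraries on the left and WT libraries on the right of each gene. Ilk and Fyn lie highest and Ptk2, Pak1 and Parvb lowest in both groups, and the cKO points of Pak1 reach the level of Ptk2.

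Other genes of the pathway formed 5 lists of 72 genes: of 71 tested, 1 was called higher and 5 lower. Among all 14789 tested genes, 4.77% were called higher and 6.17% lower, so most genes lay below the threshold there as well. Of the other 3 members of the ILK complex list, edgeR, DESeq2 and limma-voom called 0 and 0 had an unadjusted p under 0.05, and Rsu1, the PINCH-1 partner, had the smallest p (log2 -0.20 ± 0.09, edgeR adjusted p = 0.205). Of 20 tested integrin activators and actin linkers, among them talins, kindlins, actinins and zyxin, edgeR and limma-voom called 0 and DESeq2 called 1, 9 had an unadjusted edgeR p under 0.05, and the median log2 fold change was 0.05. Vasp, which promotes actin filament growth, came nearest there, at 72.3 ± 0.688 CPM in cKO and 61.6 ± 1.62 CPM in WT nerves (edgeR adjusted p = 0.0905). Of 14 FAK and Src family adaptors and kinases, edgeR and limma-voom called 0 and DESeq2 called 2, 4 had an unadjusted edgeR p under 0.05, the median was 0.05, and the smallest p was that of Yes1.

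Of 16 small GTPases, PAK partners and genes of actin turnover, edgeR called 1 lower and 0 higher, with a median of -0.16 on the log2 scale. Limk2, a LIM kinase that restrains cofilin, had 33.9, 38.2 and 37.6 CPM in cKO nerves and 51.1, 46.9 and 54.8 CPM in WT nerves. The groups did not overlap, and Limk2 fell 1.39-fold (log2 -0.48 ± 0.10, edgeR adjusted p = 0.0143), a call lost without cKO 3 (edgeR adjusted p = 0.0547).

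Of 18 integrin subunits, the receptors that sit above the plaque, 4 fell and 1 rose in cKO nerves, and the median of their log2 fold changes was -0.00065. Itga4, Itga6, Itgav and Itgb4 fell 1.61-fold, 1.59-fold, 1.43-fold and 1.49-fold (edgeR adjusted p = 0.0314, 0.00529, 0.0175 and 0.0437). Itga6, a laminin-binding chain, kept its call in each of the 6 fits without 1 library. Itga4 kept it only without WT 3 (edgeR adjusted p = 0.0568 to 0.112 in the other 5) and Itgb4 only without cKO 2 (edgeR adjusted p = 0.051 to 0.123 in the other 5), and Itgav lost it without cKO 2, cKO 3 or WT 2 (edgeR adjusted p = 0.0693, 0.0923 and 0.0598). Itgb6, the partner of alpha v in epithelia, was low in all libraries and rose 7.91-fold, with 1.66, 2.65 and 2.17 CPM in cKO nerves against 0.303, 0.225 and 0.277 CPM in WT nerves (edgeR adjusted p = 0.0019). It too was called in all 6 fits. Itgb1, the common beta chain that recruits ILK and FAK, averaged 885 CPM in cKO and 894 CPM in WT nerves (edgeR adjusted p = 0.949).

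Across the settings tried, the sign of 8 of the 10 genes did not change, the exceptions being Ilk and Ptk2. Of 15 alternative fits per gene, Parvb was called higher in 14, Vcl in 11, Pak1 in 9 and Fyn in 5, Tns3 was called lower in 8, and Lims1 was called lower in 4. Ilk, Parva, Ptk2 and Pxn were called in 0 of their 15. With total counts alone the 10 genes gave 4 higher and 0 lower.

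**Figure D5:**
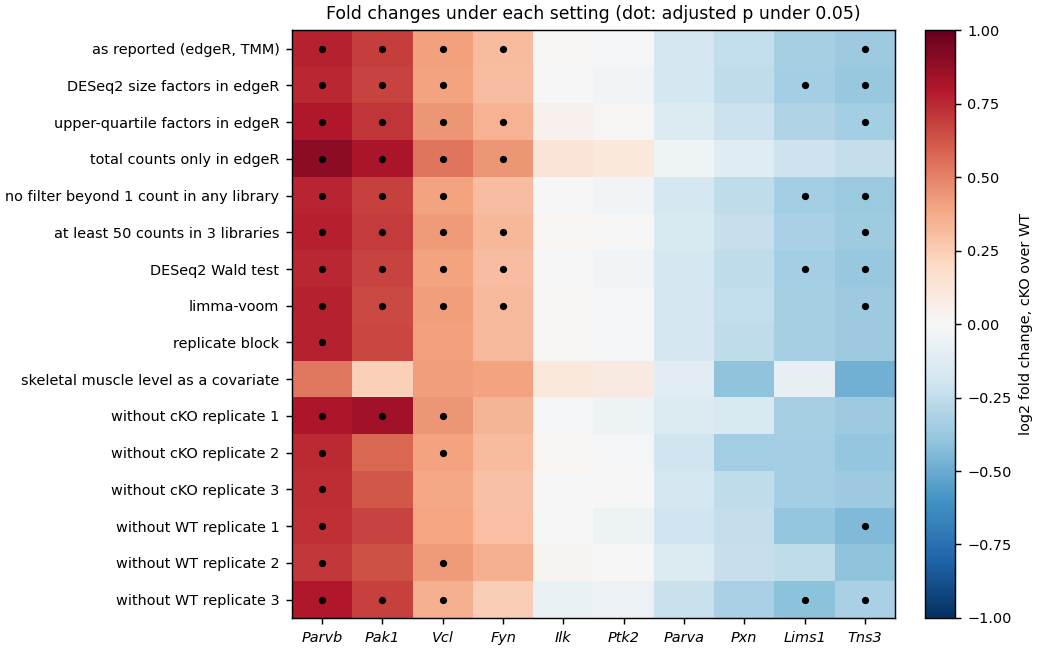
Log2 fold change of cKO over WT (colour scale, red higher and blue lower in cKO) for the 10 genes (columns) under each of 16 settings (rows), with a dot where the adjusted p was under 0.05. Parvb carries a dot in every setting but the muscle covariate, whereas Fyn carries one in no setting that leaves out a library.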

How the data were processed

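The authors deposited 1 file of raw read counts per gene symbol for each of 6 libraries, with no normalization. Per the submitters' processing notes, TopHat2 2.0.13, HTSeq and the build mm10 were used; the roles, annotation and strand setting were not given in the sources used here. Per the labels' protocols, total RNA was extracted with Trizol and RNeasy and made into TruSeq libraries. HTSeq's closing lines were left out: 12.1% to 14.3% of a file's reads fell in no gene and 1.64% to 2.82% were ambiguous. Genes were filtered with filterByExpr (minimum count 10), scaled by TMM and tested with edgeR 4.0.16 in R 4.3.3 (quasi-likelihood F test, group as the only term, Benjamini-Hochberg over all 14789 genes). The SE of a log2 fold change was derived from the F statistic. Alternatives used limma 3.58.1 and DESeq2 1.42.0. The fits were tested on simulated data. A count of 0 allows up to 0.0638 CPM in the deepest and 0.122 CPM in the shallowest library (3 counts, for counting error alone). Replicates differed far beyond counting noise (chi-square per degree of freedom at least 13.3). Positions and exon lengths are from GENCODE M21 (GRCm38).

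The members and lists were chosen with earlier results of these data known. Named were every member, every called gene of the pathway lists or the gene with the smallest p, Yap1 and Wwtr1. Taf10, Rrp8, Ap3m1, Xist, Ddx3y, Itgb1, Sox10, Cd3g and the genes of the ratios were also named, chosen outside that rule. Smooth muscle (1 of 8 higher), endothelial (0 of 7), macrophage (0 of 7), platelet (0 of 5), adipocyte (0 of 6) and fibroblast (0 of 6) lists had 0 genes called lower by edgeR, and 5 of 8 Schwann cell genes were lower. The replicate numbers were not treated as pairs.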

Additional observations from a re-analysis of the deposited data

How the results depend on the processing

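Leaving out 1 library in turn gave 735 to 2195 changed genes in all (276 to 1075 higher, 459 to 1120 lower), against 1618 (706 and 912) with all 6. Among the 10 members it gave 1 to 5 changed, 1 to 3 higher and 0 to 2 lower, against 5, 4 and 1. The lowest counts came without cKO 3. The skeletal muscle covariate left 46 called genes (5 higher, 41 lower) and 0 members in either direction. With total counts 1273 genes were higher and 606 lower, with 0 members lower. With DESeq2 size factors, with no filter and with DESeq2 itself 2 members were lower, Lims1 and Tns3. Libraries of the same number did not deviate together (correlations -0.21, -0.12 and 0.07 for numbers 1, 2 and 3), and not every library correlated best with its own number. Deviations from means of 3 libraries cannot exclude a pairing, and the labels state none. With the replicate block 461 genes were higher, and of the members 1 was called in all, 1 higher (Parvb) and 0 lower. Ilk took the opposite sign in fits without 1 library (-0.068 to 0.029). Ptk2 did so with upper-quartile factors (0.015), total counts (0.11), the muscle covariate (0.087) and in fits without 1 library (-0.058 to 0.00071). Among the gene pair ratios whose groups overlapped, Lims2/Lims1 kept its direction in 3 of the 6 sets that left out 1 library, Pak3/Pak1 and Tns1/Tns3 in 5, and Tgfb1i1/Pxn and Src/Fyn in 6; where groups did not overlap, the direction could not change. The cause of these shifts was not tested. Every cKO library was shallower than every WT library.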
